A study of Arabidopsis thaliana with 30 samples.

Results

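The transcriptome of Arabidopsis thaliana seedlings carrying rnmt1-3, a weak allele of the cap methyltransferase gene RNMT1, was compared with that of wild type (WT, accession Col-0) after treatment with the hormone abscisic acid (ABA). The comparison rests on 6 of the 30 RNA-seq libraries of the study, chosen by their labels as the 3 rnmt1 and the 3 Col-0 libraries treated with ABA. All seedlings were 5 days old, grown on plates with sucrose, then moved to liquid medium with 50 µM ABA for 3 h. The labels name the mutant only rnmt1, and the allele name comes from the study, which describes it as a knockdown, a knockout being lethal to the embryo. Further groups of 3 libraries each are used beside it: rnmt1-3 and WT moved to medium without ABA (mock), the T-DNA insertion mutant dxo1 after ABA, dxo1 expressing the catalytic C-terminal part of DXO1 (dxo1/cDXO1) after ABA, and dxo1 expressing the non-catalytic N-terminal extension (dxo1/NTE) after mock and ABA. In both transgenic genotypes the transgene is driven by the DXO1 promoter. The study calls the 3 libraries of a group biological replicates but does not say whether they came from separate plates, so p values measure the spread between these libraries.

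Eukaryotic messenger RNAs carry an N7-methylated guanosine cap (m7G) at their 5′ end, which protects the transcript and is bound by the nuclear cap-binding complex and by the translation initiation factor eIF4E. RNMT1 adds the methyl group, and in plants the N-terminal extension of DXO1 binds and activates it. ABA is perceived by PYR/PYL/RCAR receptors, which then inhibit clade A protein phosphatases 2C (PP2Cs) and so release SnRK2 kinases that phosphorylate transcription factors of the ABF/ABI5 type. These factors bind the ABA-responsive element, whose core is ACGTG, in the promoters of dehydration genes.

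Counts per library totalled 18715130 to 23249299 in the 6 libraries and 17961410 to 23249299 in the 30. Common dispersion, the squared coefficient of variation between replicates that edgeR estimates, was 0.00511 in rnmt1-3 after ABA, 0.0102 in WT after ABA and 0.0400 in WT mock. None of the 9 seed storage markers passed the filter on low counts, with summed levels in CPM (counts scaled to a common library size of 1e6) of 0.261 to 0.724 in rnmt1-3 and 0.161 to 0.346 in WT after ABA. The 7 shoot markers summed to 16305 to 17811 CPM in rnmt1-3 and 13467 to 16943 CPM in WT. Whole seedlings were sequenced in bulk, so fewer cells of a type and less RNA per cell cannot be told apart. WT replicate 1 after ABA stood apart from the other WT libraries in several light, iron and starvation genes, and the values that rest on it are given beside those without it.

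RNMT1 itself (AT3G20650, chr3:7220733-7224090, TAIR10.1) had 15.8, 16.8 and 15.6 CPM in rnmt1-3 and 18.5, 15.9 and 17.2 CPM in WT after ABA. The ranges overlapped, and the difference of -0.09 ± 0.10 (log2 fold change ± SE) did not pass the test (adjusted p = 0.501). Under mock it had 15.3, 14.8 and 14 CPM in rnmt1-3 and 22.2, 17.7 and 17.7 CPM in WT, lower in every rnmt1-3 library but not past the test (log2 fold change -0.38, adjusted p = 0.0767). How the allele lowers RNMT1 function is not given in the sources used here, so after ABA the transcript level gives no check of the genotype, and rnmt1-3 here means the libraries labelled rnmt1. DXO1 (AT4G17620) had 47.6, 49.9 and 43.7 CPM in rnmt1-3 and 40.8, 45.3 and 39.1 CPM in WT, a log2 fold change of 0.18 (adjusted p = 0.103). Without WT replicate 2 its adjusted p was 0.0396.

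Of 20032 genes tested with edgeR's quasi-likelihood test, 3945 (19.7%) were higher in rnmt1-3 than in WT after ABA and 3331 (16.6%) were lower at a Benjamini-Hochberg adjusted p under 0.05, the rule meant by rose and fell throughout. The changes were mostly small. Of the genes that passed, 85.2% differed by less than 2-fold, and the median over all tested genes was -0.01 on the log2 scale. More than 2-fold differences were found for 655 higher genes (3.27%) and 419 lower genes (2.09%), and more than 4-fold differences for 137 higher and 48 lower genes. With the study's rule of an unadjusted p under 0.05 and more than 2-fold, 685 genes (3.42%) were higher and 453 (2.26%) lower. The libraries of rnmt1-3 and WT did not overlap for 7032 of the 7276 genes that passed (96.6%), against 48.1% of all tested genes.

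Among genes that averaged 1 CPM or more and did not overlap between genotypes, most of the 10 strongest risers had few or no reads in WT. AT1G64795, an uncharacterized gene at chr1:24082579-24082848, had 96, 119 and 85 counts in rnmt1-3 and 0, 0 and 0 counts in WT, at least 31.9-fold higher against a floor of 3 counts per library. It overlaps ILA (AT1G64790), which is on the opposite strand, and since the strand setting of the counting is not stated, reads of the overlap are uncertain. ILA, a translational regulator in immunity, had 195, 206 and 193 CPM in rnmt1-3 and 189, 213 and 189 CPM in WT, with overlapping ranges. AT2G01422, annotated as a noncoding RNA, had 434, 297 and 291 counts in rnmt1-3 and 13, 0 and 0 counts in WT (log2 fold change 6.18 ± 0.46, adjusted p = 6.21e-07). NAC085, a NAC domain transcription factor, had 53, 49 and 47 counts in rnmt1-3 and 0, 0 and 2 in WT, a ratio of 71.1 with a 95% counting interval of 19.3 to 593.

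ICL, isocitrate lyase of the glyoxylate cycle that turns seed oil into sugar, had the highest level of the 10 strongest risers. It had 79.3, 90.7 and 122 CPM in rnmt1-3 and 3.69, 7.26 and 4.6 CPM in WT (log2 fold change 4.23 ± 0.20, adjusted p = 1.57e-08). Every rnmt1-3 library lay far above every WT library. TIF3C2, a copy of translation initiation factor 3 subunit C, had 50, 44 and 33 counts in rnmt1-3 and 3, 2 and 2 in WT, a log2 fold change of 4.04 (adjusted p = 1.52e-05). AT1G58684, a ribosomal protein S5 family gene, had an uneven level, with 1646, 141 and 56 counts in rnmt1-3 and 18, 34 and 26 in WT (log2 fold change 4.42 ± 1.02, adjusted p = 0.00436). Its copy AT1G58983 was even, with 3.62, 3.65 and 2.87 CPM in rnmt1-3 and 1.44, 1.31 and 1.24 CPM in WT (log2 fold change 1.35). Reads could be split between such near-identical copies.

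Genes of one family without a known function recurred among the strongest risers. DUF295 proteins share a domain of unknown function, and 4 of the 10 strongest risers were DUF295 genes (AT5G53240, AT5G53230, AT5G55270 and AT1G30170). AT5G53240 had 136, 103 and 111 counts in rnmt1-3 and 0, 1 and 0 in WT, a ratio of 334 with a 95% counting interval of 59.6 to 13237. Its neighbour AT5G53230 had 9.96, 8.88 and 6.36 CPM in rnmt1-3 and 0.161, 0.202 and 0.0989 CPM in WT (log2 fold change 5.73 ± 0.33, adjusted p = 1.02e-07). AT5G55270 had 5.02, 4.05 and 4.59 CPM in rnmt1-3 and 0.107, 0.0504 and 0.247 CPM in WT, and the libraries of both genes did not overlap between genotypes. AT1G30170 overlaps the DUF295 gene AT1G30160, and both rose (log2 fold changes 4.58 and 2.36), so their reads are uncertain. Of 69 family members, 32 had 0 counts in all 6 libraries and 19 were tested. The 4 genes passed the filter on low counts only through their level in rnmt1-3, so no count of risen members is given for the family.

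AGL14, a MADS-box transcription factor of root development, had the largest fall among such genes. It had 0.0905, 0.543 and 1.04 CPM in rnmt1-3 and 4.23, 5.34 and 5.39 CPM in WT (log2 fold change -3.19 ± 0.42, adjusted p = 7.55e-05), with no overlap. PME61, a pectin methylesterase of the cell wall, had 0.634, 0.444 and 0.939 CPM in rnmt1-3 and 4.6, 5.44 and 6.63 CPM in WT, a log2 fold change of -3.04. MRN1, marneral synthase, which makes a triterpene, had 2.44, 2.71 and 5.16 CPM in rnmt1-3 and 17.8, 25.3 and 27 CPM in WT (log2 fold change -2.77, adjusted p = 1.65e-06). All 3 genes were lower in every rnmt1-3 library than in any WT library. AT5G05200, a protein kinase superfamily gene that overlaps AT5G05190, was the most abundant of the 10 strongest fallers, with 16.5, 18.7 and 17.57 CPM in rnmt1-3 and 153, 118 and 124 CPM in WT (log2 fold change -2.90 ± 0.10, adjusted p = 3.26e-09). The other 6 (AT1G67865, AT4G22517, AT1G03700, AT2G30766, AT2G38995 and the cytochrome P450 CYP71B24) had log2 fold changes of -3.10 to -2.70.

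Among abundant genes with more than 2-fold change, those of the highest level that rose were CAB2, FER1 and LHCB3, and those that fell were FDH, GER3 and ADH1. FDH, mitochondrial formate dehydrogenase, had 226, 242 and 294 CPM in rnmt1-3 and 594, 499 and 605 CPM in WT (log2 fold change -1.15 ± 0.10, adjusted p = 2.94e-06). GER3, a germin-like protein of the cell wall, had 166, 163 and 203 CPM in rnmt1-3 and 481, 553 and 488 CPM in WT (log2 fold change -1.51 ± 0.09, adjusted p = 1.65e-07). Neither gene overlapped between genotypes. The other 4 are described with the light, iron and hypoxia genes.

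**Figure D1:**
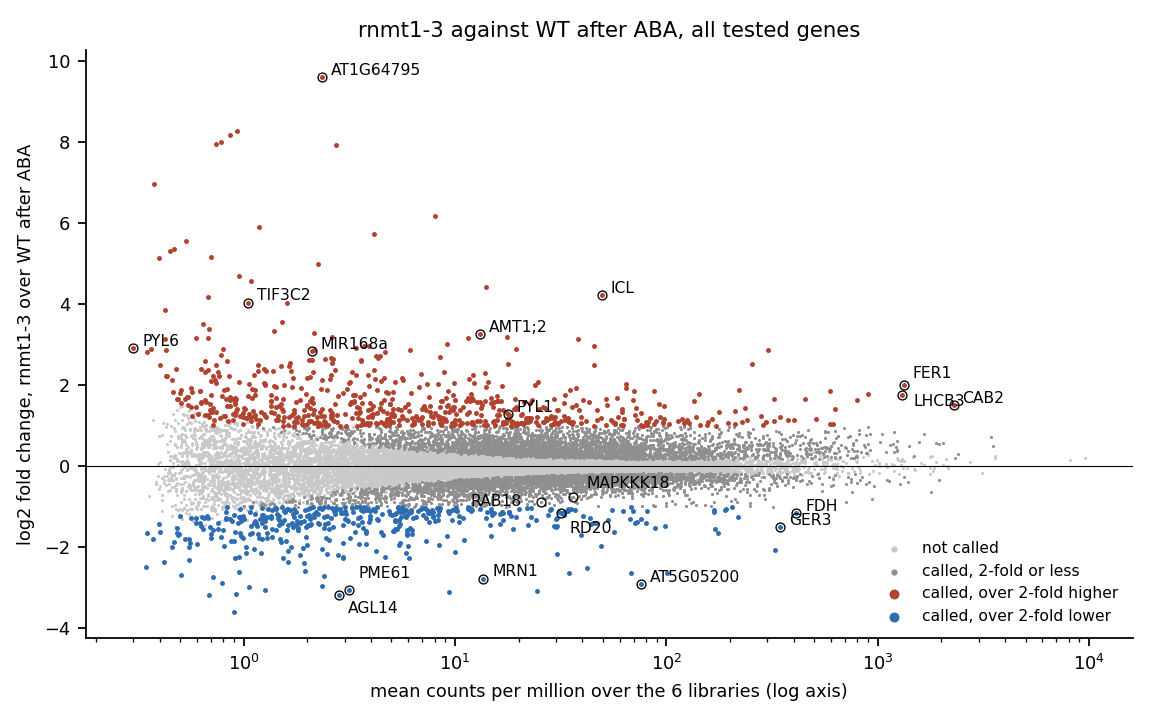
Each point is 1 of the 20032 tested genes, with its mean level in CPM over the 6 libraries (log axis) against its fitted log2 fold change, rnmt1-3 over WT after ABA. Red and blue points passed the test and differed more than 2-fold (655 higher, 419 lower), dark grey points passed with 2-fold or less, pale points did not pass. Rings mark named genes, and fitted values of genes with 0 counts in WT, such as AT1G64795, depend on the prior count.

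Several ABA receptor genes rose. Of 14 receptor genes, 9 were tested and 0 fell, and those that rose were PYR1, PYL1, PYL4, PYL5 and PYL6. PYL6 passed the filter on low counts only through its level in rnmt1-3 and could enter only as a riser. No share of risen members is therefore given. The tested members that did not pass were PYL2, PYL7, PYL8 and PYL9 (log2 fold changes -0.56, -0.06, 0.15 and -0.03). PYR1 (AT4G17870) had 62.4, 68.1 and 69.2 CPM in rnmt1-3 and 37.1, 32.7 and 39.3 CPM in WT (log2 fold change 0.88 ± 0.08, adjusted p = 4.73e-06). PYL1 (AT5G46790) had 28, 24.8 and 24.2 CPM in rnmt1-3 and 11.5, 10.4 and 9.89 CPM in WT (log2 fold change 1.28 ± 0.10). The groups did not overlap for either gene. PYL4 had 8.06, 8.93 and 9.86 CPM in rnmt1-3 and 3.69, 2.87 and 3.91 CPM in WT, and PYL5 had 20.01, 21.8 and 20.9 CPM in rnmt1-3 and 11.6, 7.91 and 10.04 CPM in WT (log2 fold changes 1.36 and 1.09). PYL6 showed the largest ratio at the lowest level, with 12, 11 and 11 counts in rnmt1-3 and 1, 2 and 1 counts in WT (log2 fold change 2.92 ± 0.63, adjusted p = 0.00295).

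The phosphatases downstream of the receptors moved by small amounts. Of 8 tested clade A PP2C genes, which restrain ABA signalling, 4 fell (50%, against 16.6% of all tested genes) and 0 rose (against 19.7%). Their median was -0.21. ABI1 (AT4G26080) had 464, 483 and 472 CPM in rnmt1-3 and 584, 558 and 606 CPM in WT (log2 fold change -0.30 ± 0.07, adjusted p = 0.00402). PP2CA had 355, 365 and 388 CPM in rnmt1-3 and 448, 446 and 469.8 CPM in WT, a log2 fold change of -0.30. Both genes were lower in every rnmt1-3 library. The number fallen was 2 of 8 without WT replicate 3, 2 of 9 without rnmt1-3 replicate 2, and 2 of 9 in a fit across all 30 libraries.

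The SnRK2 kinases and the transcription factors held few differences. SNRK2.3, a core ABA kinase, had 15, 15.4 and 17.2 CPM in rnmt1-3 and 23.5, 19.6 and 22.4 CPM in WT (log2 fold change -0.45, adjusted p = 0.00374). It was 1 of 2 kinases of 10 that fell (20%, near the 16.6% of all tested genes). The number was 1 in 4 of the 6 fits that left out a library (without WT replicate 1, where 1 rose, and without each rnmt1-3 replicate). OST1, the guard cell kinase, had 25.8, 21.1 and 24.5 CPM in rnmt1-3 and 22.2, 22.8 and 25.1 CPM in WT, with overlapping ranges. Of 12 tested ABA transcription factors 3 fell (25%, against 16.6% of all tested genes) and 0 rose (against 19.7%). NAC019 had 49.6, 49.4 and 44.5 CPM in rnmt1-3 and 71.2, 75.4 and 82.1 CPM in WT (log2 fold change -0.67 ± 0.08, adjusted p = 2.51e-05). ABI5, a bZIP factor that arrests seedling growth under ABA, had 14.3, 13.3 and 12.8 CPM in rnmt1-3 and 14.4, 15.1 and 13.8 CPM in WT (log2 fold change -0.10, adjusted p = 0.479).

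ABA-inducible MAP kinase cascade genes fell. MAPKKK18 and MAPKKK17 encode kinases whose transcripts ABA induces and which start a MAP kinase cascade. MAPKKK18 had 23.2, 27.9 and 29.3 CPM in rnmt1-3 and 40.2, 45.2 and 50.8 CPM in WT (log2 fold change -0.76 ± 0.10, adjusted p = 0.000104), and MAPKKK17 had 22.3, 17.5 and 23.4 CPM in rnmt1-3 and 36.7, 33.9 and 37.7 CPM in WT (log2 fold change -0.77). Of the 7 cascade genes, 4 fell (57.1%, against 16.6% of all tested genes) and 1 rose (14.3%, against 19.7%). Only 2 fell without rnmt1-3 replicate 2. The riser MPK14 was below 2 CPM in every library, and its call was lost with DESeq2 and in 3 of the 6 fits that left out a library (adjusted p 0.0686 to 0.183, without WT replicates 1 and 3 and without rnmt1-3 replicate 1).

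Of 31 dehydration and ABA target genes, 8 fell (25.8%, against 16.6% of all tested genes) and 3 rose (9.68%, against 19.7%), with a median of -0.09. RD20, a caleosin of lipid bodies, had 15.9, 15.5 and 27 CPM in rnmt1-3 and 36.4, 46.7 and 47.3 CPM in WT (log2 fold change -1.16 ± 0.17, adjusted p = 0.000212). RAB18, a dehydrin, had 19.5, 15 and 19.8 CPM in rnmt1-3 and 35.1, 27.4 and 37.1 CPM in WT (log2 fold change -0.87 ± 0.13, adjusted p = 0.000173). Neither gene overlapped between genotypes. RD29B, a hydrophilic stress protein, had 25.7, 26.5 and 38 CPM in rnmt1-3 and 43.5, 42.4 and 44.5 CPM in WT (log2 fold change -0.53 ± 0.12, adjusted p = 0.00446), and P5CS1, the rate-limiting enzyme of proline synthesis, had 212, 216 and 242 CPM in rnmt1-3 and 287, 333 and 316 CPM in WT (log2 fold change -0.48). COR15B, a cold-regulated chloroplast protein, fell most (log2 fold change -1.36) at 3.12, 2.52 and 3.13 CPM in rnmt1-3 and 8.83, 4.99 and 8.8 CPM in WT, and LEA4-5 fell least of those named (-0.36). The direction was not uniform. RD29A, a paralog of RD29B, had 2559, 2549 and 2439.6 CPM in rnmt1-3 and 2208, 2117 and 2233 CPM in WT (log2 fold change 0.21, adjusted p = 0.0396), and its call was lost in 4 of the 6 fits that left out a library (adjusted p 0.0640 to 0.129, without WT replicate 3 and without each rnmt1-3 replicate) and in the fit across all 30 libraries (0.491). COR15A and DOG1, a regulator of seed dormancy, also rose (0.61 and 1.34), and their calls were lost in 3 fits for COR15A (adjusted p 0.0519 to 0.0885, without WT replicate 2 and rnmt1-3 replicates 1 and 2) and in 4 for DOG1 (0.0739 to 0.127, without WT replicates 2 and 3 and rnmt1-3 replicates 1 and 2). The number of risers was 0 without rnmt1-3 replicate 1, and 1 without WT replicate 3 or without rnmt1-3 replicate 2.

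The promoters of 4 fallen ABA-inducible genes are shown because the ABA-responsive core lies in each of them. They are the 250 bases before the annotated start from RefSeq (TAIR10.1), on the gene's strand at chr1:1469291-1469540 (plus strand) for MAPKKK18, chr2:14146556-14146805 (minus strand) for RD20, chr5:26519448-26519697 (minus strand) for RAB18 and chr5:21236771-21237020 (plus strand) for RD29B, and capitals mark every ACGTG and its reverse complement CACGT, which overlap in the palindrome CACGTG.
MAPKKK18: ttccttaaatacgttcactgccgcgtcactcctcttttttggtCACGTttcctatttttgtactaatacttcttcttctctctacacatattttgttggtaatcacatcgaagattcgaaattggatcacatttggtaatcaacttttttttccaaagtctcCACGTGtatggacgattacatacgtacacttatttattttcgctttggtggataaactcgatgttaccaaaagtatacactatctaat
RD20: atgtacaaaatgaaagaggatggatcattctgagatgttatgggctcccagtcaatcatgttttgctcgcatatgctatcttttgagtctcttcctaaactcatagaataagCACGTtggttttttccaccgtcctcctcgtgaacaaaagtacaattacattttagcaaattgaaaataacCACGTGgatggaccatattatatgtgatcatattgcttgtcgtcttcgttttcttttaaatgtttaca
RAB18: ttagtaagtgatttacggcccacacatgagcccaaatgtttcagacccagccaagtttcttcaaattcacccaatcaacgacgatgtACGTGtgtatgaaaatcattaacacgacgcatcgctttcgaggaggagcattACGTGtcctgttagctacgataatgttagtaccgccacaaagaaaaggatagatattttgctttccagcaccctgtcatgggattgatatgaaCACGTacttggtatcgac
RD29B: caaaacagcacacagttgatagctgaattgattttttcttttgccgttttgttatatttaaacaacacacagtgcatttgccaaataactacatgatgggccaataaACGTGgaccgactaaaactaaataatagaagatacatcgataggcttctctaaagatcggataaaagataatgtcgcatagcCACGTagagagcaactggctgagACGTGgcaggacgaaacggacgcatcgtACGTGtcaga
The core was found 3 times in MAPKKK18, RD20 and RAB18 and 4 times in RD29B, counting both strands. In windows of 300 bases (250 before to 50 after the start), ACGTG on either strand occurred in 28.1% of all tested genes with a promoter, in 29.2% of the genes more than 2-fold higher in rnmt1-3 and in 37.7% of those more than 2-fold lower. Among all genes that passed, at any fold, it occurred in 27.0% of those higher and 30.9% of those lower, near the share of all tested genes. Of the 4 genes shown, only RD20 fell by more than 2-fold. A match describes these letters and is not a shown binding site.

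**Figure D2:**
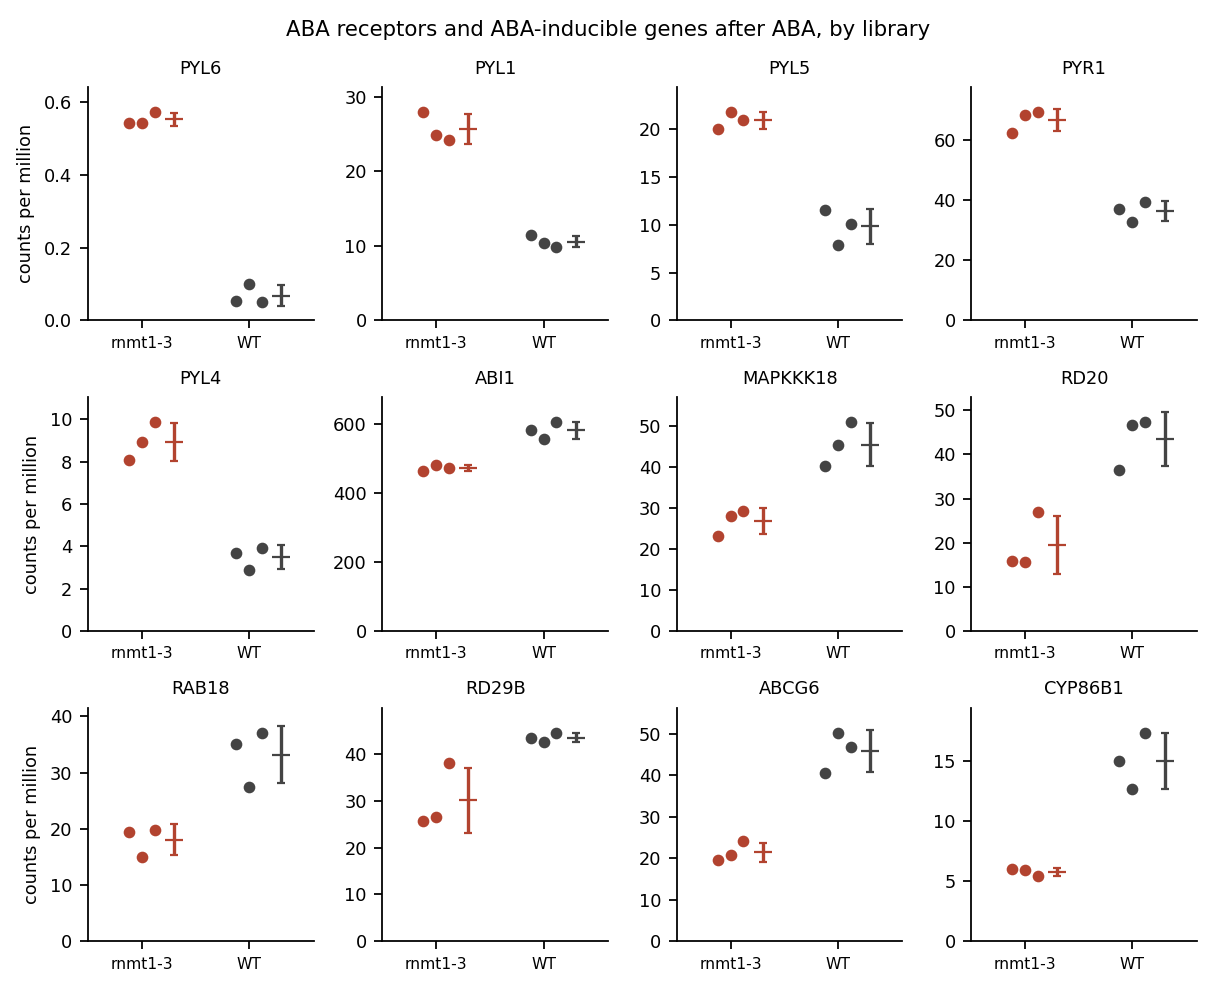
CPM values after ABA for 5 ABA receptors (PYL6, PYL1, PYL5, PYR1, PYL4), the phosphatase gene ABI1 and 6 ABA-inducible or suberin genes, with rnmt1-3 left of WT, 1 point per library and the mean with SD beside the points. All 5 receptors lie higher in every rnmt1-3 library than in any WT library, and the other 7 genes lie lower.

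Of 13 tested genes of ABA metabolism and transport 3 rose (23.1%, against 19.7% of all tested genes) and 2 fell (15.4%, against 16.6%), shares near those of all genes. ABCG40, a plasma membrane ABA importer, had 26.5, 29.2 and 18.9 CPM in rnmt1-3 and 7.49, 10.2 and 4.65 CPM in WT (log2 fold change 1.75 ± 0.22, adjusted p = 4.72e-05). UGT71C5, which glucosylates ABA, had 41.3, 35.4 and 34.6 CPM in rnmt1-3 and 26.5, 18.3 and 18.8 CPM in WT (log2 fold change 0.81), while AAO3, the last enzyme of ABA synthesis, had 51.7, 53.1 and 48.3 CPM in rnmt1-3 and 86.3, 74.6 and 82.6 CPM in WT (log2 fold change -0.66, adjusted p = 2.17e-05). None of the 3 overlapped between genotypes. The number fallen was 4 without WT replicate 2.

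Suberin genes, which build the lipid barrier of root endodermis and wounds, mostly fell. Of 13 tested genes 10 fell (76.9%, against 16.6% of all tested genes), with a median of -0.57. The reductase gene FAR1 was the 1 that rose (7.69%, against 19.7%). The list and the fallen number include ABCG16, a transporter gene of the ABCG family whose part in suberin is not shown here. Between 8 and 10 fell when a library was left out, and 2 rose without WT replicate 1 and 0 without WT replicate 2 or rnmt1-3 replicate 2. CYP86B1, a fatty acid hydroxylase, had 5.98, 5.97 and 5.42 CPM in rnmt1-3 and 15, 12.6 and 17.36 CPM in WT (log2 fold change -1.37 ± 0.14, adjusted p = 1.05e-05). GPAT5, an acyltransferase, had 5.39, 5.03 and 4.48 CPM in rnmt1-3 and 13.2, 9.78 and 11.8 CPM in WT (log2 fold change -1.21). ABCG6, a suberin transporter, had 19.6, 20.7 and 24 CPM in rnmt1-3 and 40.5, 50.2 and 46.8 CPM in WT (log2 fold change -1.09 ± 0.10, adjusted p = 3.91e-06). No rnmt1-3 library reached a WT library in these 3 genes. MYB41, a transcription factor that drives suberin synthesis, had 5.07, 3.65 and 7.77 CPM in rnmt1-3 and 13, 12.8 and 15.3 CPM in WT (log2 fold change -1.32), and the feruloyl transferase ASFT had 46.4, 49.5 and 56.5 CPM in rnmt1-3 and 73.3, 73.5 and 80.9 CPM in WT (log2 fold change -0.58). The 8 root markers summed to 58.9 to 62.1 CPM in rnmt1-3 and 64.6 to 69.0 CPM in WT, with 2 of 8 fallen and 0 risen (1 fallen without WT replicate 2 or without rnmt1-3 replicate 2). Their part in the suberin values was not tested.

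A wider list of ABA-responsive genes was taken from dxo1/NTE, so that its choice used no rnmt1-3 or WT library. In dxo1/NTE, 1055 of 20219 genes (5.22%) were more than 2-fold higher after ABA than after mock and 596 (2.95%) more than 2-fold lower. Of the 1050 induced genes tested in rnmt1-3 against WT after ABA, 283 were lower in rnmt1-3 (27.0%, against 16.6% of all tested genes) and 130 higher (12.4%, against 19.7%), with a median of -0.10. Leaving out single libraries gave 202 to 293 lower and 87 to 125 higher genes. The shift was small for most members, with quartiles of -0.39 and 0.17. Of the 502 tested repressed genes 94 were higher and 66 lower, with a median of 0.00 and quartiles of -0.36 and 0.47. ACGTG occurred in 51.4% of the promoters of induced genes, in 50.9% of those lower in rnmt1-3, in 48.5% of those higher and in 52.3% of those that did not pass.

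The genes with the largest induction in dxo1/NTE fell more often than they rose, though many did not pass. Among the 20 with the largest induction at a mean of at least 50 CPM there, 8 fell, 1 rose (RD29A) and 11 did not pass in rnmt1-3 against WT after ABA. The whole induced list had 27.0% lower and 12.4% higher, and all tested genes 16.6% and 19.7%. LEA7 had a log2 fold change of -0.38 (adjusted p = 0.00138) and the monooxygenase gene FMO GS-OX4 one of -0.35 (adjusted p = 0.00134). The heat shock factor gene HSFA6B had one of -0.28 (adjusted p = 0.00353). TSPO, a stress-induced membrane protein, averaged 62.2 CPM in rnmt1-3 and 66.7 CPM in WT, and GOLS2, a galactinol synthase, averaged 57.0 CPM in rnmt1-3 and 58.1 CPM in WT. Neither passed (adjusted p = 0.476 and 0.869). ABI2 averaged 120.5 CPM in rnmt1-3 and 120.7 CPM in WT (adjusted p = 0.988).

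**Figure D3:**
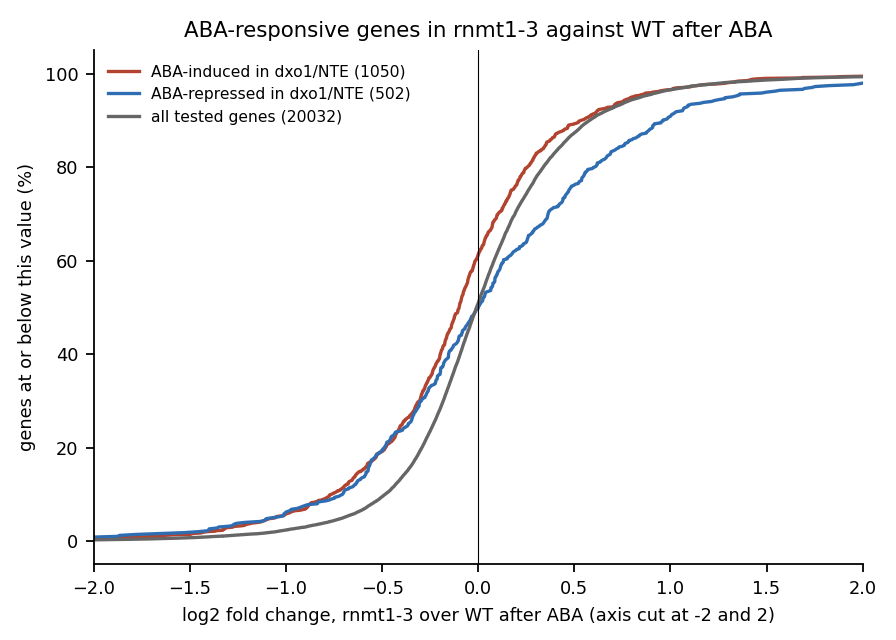
Cumulative share of genes (vertical axis, %) at or below each log2 fold change, rnmt1-3 over WT after ABA (horizontal axis, cut at -2 and 2), for the 1050 genes induced by ABA in dxo1/NTE, the 502 repressed genes and all 20032 tested genes. The induced curve lies left of that of all genes around 0 (medians -0.10 and -0.01), and the repressed curve is wider on both sides.

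Of 5 tested genes for cap-binding proteins 4 rose (80%, against 19.7% of all tested genes) and 0 fell (against 16.6%), with a median of 0.34. RNMT1 and DXO1, given first, are not counted among them and did not pass. EIF4E, the cytoplasmic cap-binding factor, had 138, 131 and 122 CPM in rnmt1-3 and 66.9, 65.1 and 65.3 CPM in WT (log2 fold change 0.99 ± 0.07, adjusted p = 3.4e-07), with no overlap. CBP20, the small subunit of the nuclear cap-binding complex, had 57, 51.1 and 54.9 CPM in rnmt1-3 and 38.5, 35.9 and 37.2 CPM in WT (log2 fold change 0.55, adjusted p = 7.77e-05). ABH1, the large subunit, whose loss makes plants hypersensitive to ABA, had 51.3, 47.9 and 47.8 CPM in rnmt1-3 and 45.6, 52.5 and 51.9 CPM in WT, with overlapping ranges (adjusted p = 0.828). EIF(ISO)4E and NCBP, further eIF4E family members, rose by smaller amounts (0.34 and 0.32). Of 222 genes annotated as ribosomal proteins, 199 were tested, with a median of 0.40. Of these 151 rose (75.9%, against 19.7% of all tested genes), 3 fell (1.51%, against 16.6%) and 45 did not pass. The risen members had a median of 0.47, and 10 of them differed more than 2-fold. Leaving out single libraries gave 121 to 154 risen members. The 3 that fell were AT1G52370, AT2G16930 and AT5G53920, the last of which is annotated as a methyltransferase of a ribosomal protein. The summed CPM of all members was 46897 to 50588 in rnmt1-3 and 34544 to 38707 in WT.

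A few microRNA genes rose. MicroRNAs pair with target mRNAs and lead an ARGONAUTE protein to cut or repress them. Mature sequences of the 6 risen MIR genes, from RefSeq (TAIR10.1), are shown because they differ in seed, with bases 2 to 8 in capitals.
miR158a-3p: uCCCAAAUguagacaaagca
miR403-3p: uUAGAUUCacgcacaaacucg
miR156c-5p: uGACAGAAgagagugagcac
miR168a-5p: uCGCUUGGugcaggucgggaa
miR825: uUCUCAAGaaggugcaugaac
miR414: uCAUCUUCaucaucaucguca
No 2 of these shared a seed. They lie at chr3:3366349-3366368 (minus strand), chr2:19415154-19415174 (plus strand), chr4:15415491-15415510 (minus strand), chr4:10578652-10578672 (plus strand), chr2:11159774-11159794 (plus strand) and chr1:25137519-25137539 (minus strand) in the same order. The libraries were made from polyadenylated RNA, so the counts are of primary or precursor transcripts and not of the mature molecules.

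Of 325 annotated MIR genes 200 had 0 counts in all 6 libraries and 21 were tested. Several of those that rose, MIR158a, MIR403 and MIR156c among them, passed the filter on low counts only through their level in rnmt1-3, so no share of risen members is given. MIR158a had 47, 32 and 40 counts in rnmt1-3 and 0, 0 and 0 counts in WT, at least 12.6-fold higher against a floor of 3 counts per library. MIR168a had 84, 67 and 83 counts in rnmt1-3 and 7, 13 and 11 counts in WT (log2 fold change 2.84 ± 0.30, adjusted p = 1.12e-05). MIR156c, of the family that delays the adult phase, had 57, 63 and 57 counts in rnmt1-3 and 7, 4 and 3 counts in WT (log2 fold change 3.56). These 3 genes were separated between the genotypes in every library. MIR403 had 34, 32 and 17 counts in rnmt1-3 and 4, 0 and 0 counts in WT (log2 fold change 4.18, adjusted p = 0.000566), and MIR414 had 23.9, 19.7 and 18 CPM in rnmt1-3 and 14.6, 14.9 and 15.3 CPM in WT (log2 fold change 0.47). MIR825 rose by 1.33, but its call was lost with DESeq2 (adjusted p = 0.0603), in the fit across all 30 libraries (0.0881) and in 3 of the 6 fits that left out a library (0.0516 to 0.0919, without WT replicates 1 and 2 and without rnmt1-3 replicate 1).

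Known targets of miR168a and miR403 are ARGONAUTE genes, and their sites are shown with the bases that match the exact complement of the microRNA in capitals and the bases that depart from it in lower case, where a G:U pair counts as a departure.
AGO1 site: UUCCCGAgCUGCAuCAAGCuA
AGO2 site: gGAGUUUGUGCGUGAAUCUAA
The first lies in the AGO1 coding sequence at chr1:17891529-17891549 (minus strand) with 3 departures from the complement of miR168a-5p, and the second in the AGO2 3′ untranslated region at chr1:11185223-11185243 (plus strand) with 1 departure from that of miR403-3p. AGO2 had 41.7, 39 and 46.7 CPM in rnmt1-3 and 20.1, 20.1 and 20.5 CPM in WT (log2 fold change 1.07 ± 0.09, adjusted p = 1.19e-06). AGO1 had 313, 310.5 and 325 CPM in rnmt1-3 and 272, 266 and 254 CPM in WT (log2 fold change 0.26 ± 0.06, adjusted p = 0.00628). Both genes were higher in every rnmt1-3 library, as were their microRNA genes. HYL1 and SE, which help DICER-LIKE 1 process primary microRNAs, rose by 0.46 and 0.31. Of 14 tested small RNA genes 6 rose (42.9%, against 19.7% of all tested genes) and 3 fell (21.4%, against 16.6%). The fallen number was 0 without rnmt1-3 replicate 1 and 1 without WT replicate 3, without rnmt1-3 replicate 3 and with DESeq2.

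Flavonoid enzymes rose together. Of 10 tested enzymes 8 rose (80%, against 19.7% of all tested genes) and 0 fell (against 16.6%), with a median of 1.01. DFR, dihydroflavonol reductase at the entry to anthocyanins, had 33.2, 42 and 30.9 CPM in rnmt1-3 and 5.14, 4.33 and 4.9 CPM in WT (log2 fold change 2.89 ± 0.13, adjusted p = 1.46e-08). LDOX, the next enzyme, had 15.8, 17.9 and 11.9 CPM in rnmt1-3 and 3.8, 3.12 and 2.18 CPM in WT (log2 fold change 2.33), and TT4, chalcone synthase at the start of the pathway, had 354, 349.8 and 309.7 CPM in rnmt1-3 and 119, 192 and 149 CPM in WT (log2 fold change 1.14). No library of rnmt1-3 overlapped WT in these genes. Among 8 tested regulators 2 rose, the bHLH activator TT8 (1.28) and the repressor MYBL2 (1.61), and 0 fell (2 fell without WT replicate 1). The share of regulators that rose was near the 19.7% of all tested genes. Their median was -0.07, so the regulators as a list did not rise with the enzymes. TT19, a glutathione transferase that carries anthocyanins, had 12.2, 13.5 and 6.52 CPM in rnmt1-3 and 2.84, 4.74 and 3.91 CPM in WT (log2 fold change 1.49).

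Light-harvesting genes, which encode the chlorophyll-binding antenna proteins, rose as well. Of 21 tested genes 16 rose (76.2%, against 19.7% of all tested genes) and 0 fell (against 16.6%). The median was 0.79, and 19 rose without WT replicate 1. LHCB2.2 had 617, 580.1 and 442 CPM in rnmt1-3 and 126, 53.3 and 47.2 CPM in WT (log2 fold change 2.86 ± 0.28, adjusted p = 7.64e-06). LHCB3 had 2213, 2098 and 1907 CPM in rnmt1-3 and 866, 439.5 and 521 CPM in WT (log2 fold change 1.77), and CAB2 had 3843, 3315 and 3253 CPM in rnmt1-3 and 1639, 970.3 and 1031 CPM in WT (log2 fold change 1.52). In each of the 3 genes WT replicate 1 was the highest WT library and still lay below every rnmt1-3 library, and without it the log2 fold changes were 3.44 for LHCB2.2, 2.11 for LHCB3 and 1.79 for CAB2. LHCB2.1, LHCB2.4 and LHCB4.2 rose by 2.52, 3.14 and 1.65, and CAB3 by 0.56. CAB2 and CAB3, and the LHCB2 genes, are near-identical copies whose reads could be divided. Of the 7 shoot markers 1 rose and 2 fell (4 rose without WT replicate 1), and their part in the light-harvesting values was not tested.

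Genes of darkness and sugar starvation mostly fell. Of 16 tested genes 11 fell (68.75%, against 16.6% of all tested genes) and 1 rose (6.25%, against 19.7%). The median was -0.52, and between 8 and 14 fell when a library was left out (10 without WT replicate 1). SEN1, a senescence-associated dark-inducible gene, had 49.1, 47.2 and 56.7 CPM in rnmt1-3 and 135, 77.7 and 118 CPM in WT (log2 fold change -1.11 ± 0.15, adjusted p = 0.000107). BCAT-2, a branched-chain amino acid transaminase, had 6.38, 5.43 and 6.88 CPM in rnmt1-3 and 21.5, 9.78 and 12.9 CPM in WT (log2 fold change -1.23). Both were lower in every rnmt1-3 library, and without WT replicate 1 the log2 fold changes were -0.94 for SEN1 and -0.86 for BCAT-2. ASN1, asparagine synthetase, had 24.9, 23.59 and 18.6 CPM in rnmt1-3 and 82.3, 12 and 24 CPM in WT and did not pass (adjusted p = 0.196). The WT libraries spread widely for this gene, and its sign rested on 1 library, being 0.32 on the log2 scale without WT replicate 1 (adjusted p = 0.205) and -1.24 without WT replicate 2 (adjusted p = 0.0113).

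Hypoxia genes fell or did not pass. Of 14 tested genes 7 fell (50%, beside 16.6% of all tested genes) and 0 rose (beside 19.7%), with a median of -0.52. Only 1 fell in a fit across all 30 libraries. ADH1, alcohol dehydrogenase of fermentation, had 93.6, 117 and 164 CPM in rnmt1-3 and 207, 781 and 571 CPM in WT (log2 fold change -2.06 ± 0.34, adjusted p = 0.000468, and 0.0574 across all 30 libraries). HB1, a haemoglobin induced by low oxygen, had 36.9, 53 and 44.8 CPM in rnmt1-3 and 86.9, 167 and 136 CPM in WT (log2 fold change -1.53). WT replicate 1 was the lowest WT library in both genes and above every rnmt1-3 library. Without it the log2 fold changes were -2.44 for ADH1 and -1.75 for HB1, 6 of the 14 genes fell, and 1 gene rose without WT replicate 2.

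Iron storage genes rose. FER1, the main leaf ferritin, had 2326, 2099 and 2121 CPM in rnmt1-3 and 847, 389 and 393 CPM in WT (log2 fold change 2.01 ± 0.23, adjusted p = 2.46e-05). FER3 had 519.6, 495 and 486 CPM in rnmt1-3 and 185, 151 and 141 CPM in WT (log2 fold change 1.66 ± 0.09). The groups did not overlap in either ferritin gene, and without WT replicate 1 the log2 fold changes were 2.48 for FER1 and 1.78 for FER3. Of 12 tested iron genes 3 rose, all of them ferritins, a share near the 19.7% of all tested genes. The 4 that fell (33.3%, against 16.6%) were the reductases FRO2 and FRO3, the phloem transporter OPT3 and the sensor BTS. The median of the 12 was 0.06, and the counts were the same without WT replicate 1.

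Of 20 tested glucosinolate genes, which make sulfur-containing defence compounds, 10 rose (50%, against 19.7% of all tested genes) and 1 fell (5%, against 16.6%). The median was 0.30, and 3 fell without WT replicate 1. CYP79F1, which starts the aliphatic core pathway, had 67.6, 69.4 and 62 CPM in rnmt1-3 and 23, 24.9 and 18.6 CPM in WT (log2 fold change 1.59 ± 0.10, adjusted p = 1.77e-07). MYB29 and MYB76, activators of that branch, rose by 1.25 and 2.88. MYB76 averaged 0.786 CPM in rnmt1-3 and 0.103 CPM in WT. It passed the filter on low counts only through its level in rnmt1-3 and could enter only as a riser. The 10 risen genes include it. CYP83B1, of the indolic branch, had 117, 127 and 158 CPM in rnmt1-3 and 157, 365 and 293 CPM in WT (log2 fold change -1.01, adjusted p = 0.00275), WT replicate 1 being lowest and within the rnmt1-3 range, and without it the log2 fold change was -1.29.

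The remaining lists are given as counts, beside shares of 19.7% higher and 16.6% lower over all tested genes. Some counts include members near or below the filter on low counts in 1 genotype, which could hardly be called the other way. Among them are the heat shock faller ATHSP22.0 (mean 0.220 CPM in rnmt1-3 and 0.868 CPM in WT) and the salicylic acid riser PR2 (1.29 and 0.409 CPM). So are the XTH fallers XTH13 (0.323 and 1.55 CPM) and XTH26 (0.523 and 1.63 CPM). Of 17 tested chitinases 8 fell (47.1%) and 1 rose (5.88%). Of 37 tested genes of the glutathione transferase list 15 rose (40.5%) and 3 fell (8.11%), among them GSTU27 at 39.6, 45.4 and 38.5 CPM in rnmt1-3 and 15.7, 19.1 and 19 CPM in WT (log2 fold change 1.202), with 8 risen without rnmt1-3 replicate 1 and 5 fallen without WT replicate 1. Heat shock genes rose in 7 (58.3%) and fell in 1 (8.33%) of 12 tested, and 0 fell without WT replicate 2 or rnmt1-3 replicates 1 or 2. Plant defensins rose in 3 (30%) and fell in 4 (40%) of 10. Salicylic acid defence genes rose in 3 (21.4%) and fell in 3 of 14, shares near those of all genes (5 fell without rnmt1-3 replicate 1). Clock genes rose in 6 and fell in 4 of 16, with 2 fallen without rnmt1-3 replicate 2. In 19 tested jasmonate genes 1 rose (5.26%) and 3 fell (15.8%), and 5 rose without WT replicate 1, 2 without rnmt1-3 replicate 3 and 0 without any of the other 4 libraries. XTH cell wall enzymes rose in 9 and fell in 7 of 29, with 4 fallen without WT replicate 3 or rnmt1-3 replicate 1. SAUR genes rose in 6 (16.2%) and fell in 2 (5.41%) of 37, with 3 risen without rnmt1-3 replicate 2, and 1 fallen without WT replicates 2 or 3 or rnmt1-3 replicates 2 or 3. Genes of decapping and RNA decay rose in 1 (11.1%) and fell in 1 of 9, and the riser was lost without every library but WT replicate 1, and the faller without every library but WT replicate 1 and rnmt1-3 replicate 2. Aquaporins of the PIP group rose in 2 (15.4%) and fell in 1 (7.69%) of 13, with 3 fallen without WT replicate 2, touch genes rose in 3 and fell in 1 of 10, and organelle-encoded genes rose in 5 (7.46%) and fell in 3 (4.48%) of 67, with 2 risen without WT replicate 3 or rnmt1-3 replicate 2 and 1 fallen without WT replicates 1 or 3 or rnmt1-3 replicate 2.

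**Figure D4:**
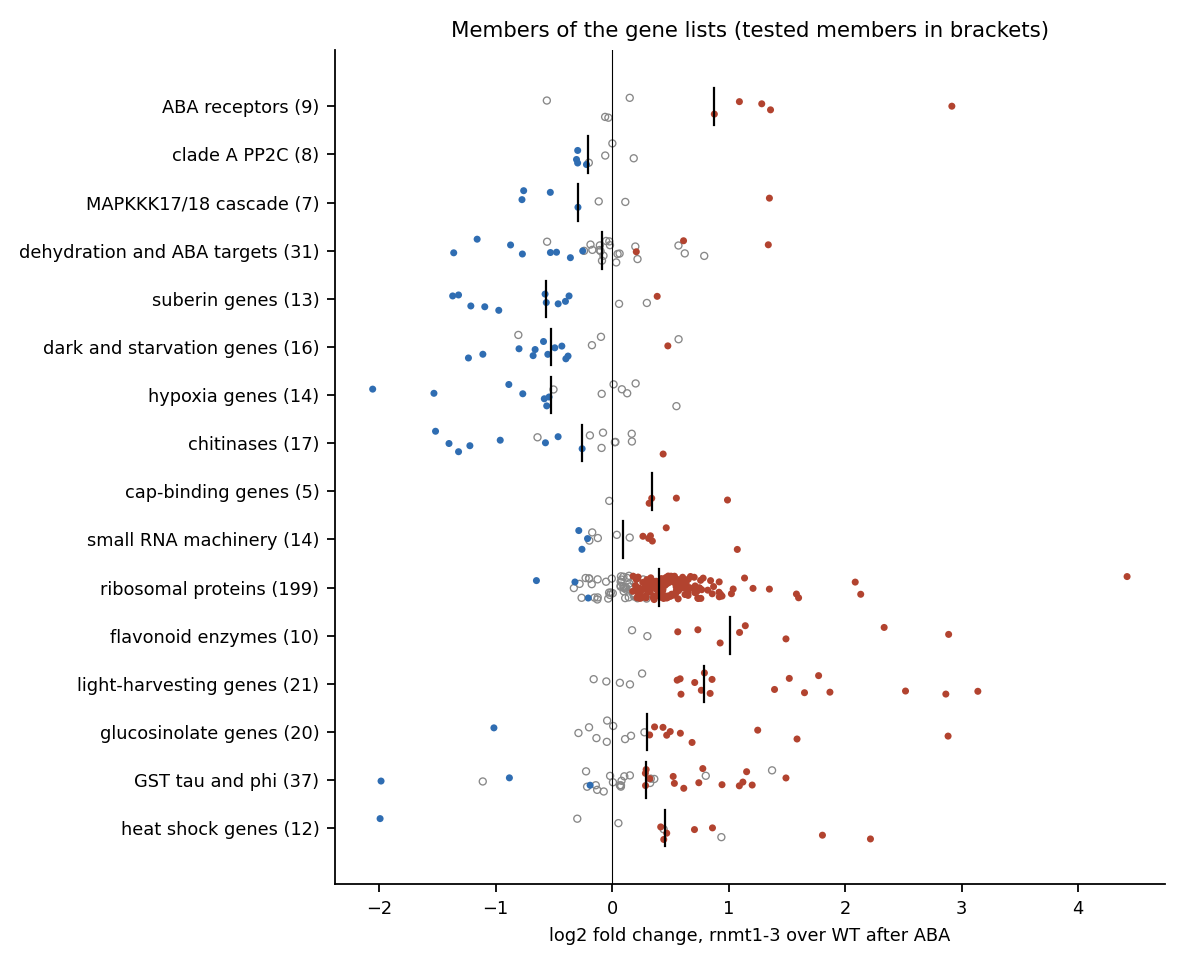
Log2 fold change, rnmt1-3 over WT after ABA (horizontal axis), of every tested member of 16 gene lists, 1 point per gene, with filled red points for members that rose, filled blue points for those that fell, open points for those that did not pass and a bar at each list's median. Flavonoid enzymes (median 1.01), light-harvesting genes (0.79) and ribosomal proteins (0.40) lie mostly to the right, and suberin genes (-0.57) and dark and starvation genes (-0.52) to the left. The bar of the ABA receptors includes PYL6, which passed the filter on low counts only through its level in rnmt1-3.

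Many of the larger differences were also seen without ABA. Under mock, 2013 of 19960 tested genes (10.1%) were higher in rnmt1-3 than in WT and 1748 (8.76%) lower. WT mock replicate 1 stood apart, and without it 3891 were higher and 3576 lower, while leaving out other libraries gave as few as 893 higher and 552 lower genes (without rnmt1-3 mock replicate 2). Of the 655 genes more than 2-fold higher after ABA, 627 were tested under mock, 467 passed there in the same direction and 0 in the opposite one, with medians of 1.19 under mock and 1.402 after ABA. Of the 419 more than 2-fold lower, 379 were tested under mock, 189 passed in the same direction and 0 in the opposite one, with medians of -1.03 under mock and -1.32 after ABA. ICL differed by 4.01 under mock and 4.23 after ABA, DFR by 3.11 and 2.89, and AT5G05200 by -3.67 and -2.90. Of 9 tested receptor genes 1 rose under mock (PYL4, 0.47), and PYR1 differed by 0.09 (adjusted p = 0.690). The interaction of genotype and ABA, given below, passed for PYL6 but not for PYR1, PYL1, PYL4 or PYL5. A difference between treatments is therefore not shown for those receptor genes. The ABA-induced list had 96 higher (10.9%) and 78 lower (8.85%) of 881 tested genes under mock, with a median of 0.05.

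The interaction of genotype and ABA, which tests whether the rnmt1-3 difference after ABA differs from that under mock, passed for 26 of 20613 genes, 8 positive (0.0388%) and 18 negative (0.0873%). An unadjusted p under 0.05 was found for 1521 genes. Without WT mock replicate 1, 95 were positive and 108 negative, leaving out other libraries gave as few as 2 positive and 8 negative (without WT replicate 2 after ABA), and DESeq2 called 49 positive and 71 negative. Of the 26 genes 19 also passed after ABA. Of the 8 described here, ACL, AMT1;2, AT2G47780, ABCG16 and CHX17 passed in each of the 12 fits that left out a library, and all 8 passed in the 5 other alternatives.

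PYL6, the receptor gene with the largest ratio after ABA, was level under mock, with 57, 43.3 and 47.2 CPM in rnmt1-3 and 45.7, 49.2 and 46.7 CPM in WT. After ABA it had 0.543, 0.543 and 0.574 CPM in rnmt1-3 and 0.0535, 0.101 and 0.0495 CPM in WT (interaction 2.85 ± 0.45 on the log2 scale, adjusted p = 0.0202). Its interaction did not pass in 6 of the 12 fits that left out a library, those without any 1 of the 6 libraries after ABA (adjusted p 0.0598 to 0.139). Its level was far lower after ABA than under mock in both genotypes. AMT1;2, an ammonium transporter gene chosen after its values were seen, had 37.9, 47.9 and 33.9 CPM in rnmt1-3 and 23.5, 19.9 and 13.3 CPM in WT under mock, and 24.7, 25.8 and 23.4 CPM in rnmt1-3 and 2.09, 2.42 and 3.16 CPM in WT after ABA (interaction 2.18, adjusted p = 0.00697). ACL, annotated as an acetone-cyanohydrin lyase, had 183, 177 and 165 CPM in rnmt1-3 and 149.95, 128 and 136 CPM in WT under mock, and 93.7, 92.4 and 88 CPM in rnmt1-3 and 27.4, 28.8 and 29 CPM in WT after ABA (interaction 1.33 ± 0.12, adjusted p = 0.000127). In all 3 genes the ABA-treated WT libraries were the lowest of the 4 groups.

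AT2G47780, a rubber elongation factor family gene that overlaps AT2G47790, showed the opposite pattern. It had 3.63, 3.22 and 2.82 CPM in rnmt1-3 and 0.220, 0.156 and 0.219 CPM in WT under mock, and 42.4, 44.8 and 50.5 CPM in rnmt1-3 and 29.1, 30.2 and 31.1 CPM in WT after ABA (interaction -3.38 ± 0.27, adjusted p = 8.91e-05). The difference was 3.99 under mock and 0.61 after ABA. Of the 26 genes, 14 passed under mock and after ABA, 7 of them with a positive difference under mock and a negative one after ABA and 0 the other way. Over all genes, of the 3945 that rose after ABA 2 fell under mock, and of the 3331 that fell after ABA 9 rose under mock. The 7 genes include ABCG16, CHX17 and LTP3. ABCG16, a transporter gene of the ABCG family, had 6.18, 7.54 and 5.94 CPM in rnmt1-3 and 4.28, 3.55 and 3.68 CPM in WT under mock, and 10.6, 13 and 12.9 CPM in rnmt1-3 and 21.7, 24.2 and 25.7 CPM in WT after ABA (interaction -1.76 ± 0.20, adjusted p = 0.00287). CHX17, a cation/proton exchanger, differed by 0.88 under mock and -0.79 after ABA (interaction -1.68, adjusted p = 0.00540), and LTP3, a lipid transfer protein, by 1.23 and -0.77 (interaction -1.999, adjusted p = 0.0234). The interaction of LTP3 passed in 3 of the 12 fits that left out a library (without WT mock replicates 1 or 2 or WT replicate 1 after ABA), and in the other 9 its adjusted p was 0.0563 to 0.102. The 6 rnmt1-3 and 6 WT libraries did not overlap within either treatment for these 3 genes. The aquaporin gene PIP1;4 was higher in rnmt1-3 in both, by 1.27 under mock and 0.39 after ABA (interaction -0.89, adjusted p = 0.0150), but the interaction did not pass in 6 of the 12 fits (adjusted p 0.0617 to 0.0772, without WT replicates 2 or 3 or rnmt1-3 replicates 1 or 2 after ABA, or rnmt1-3 mock replicates 1 or 2).

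**Figure D5:**
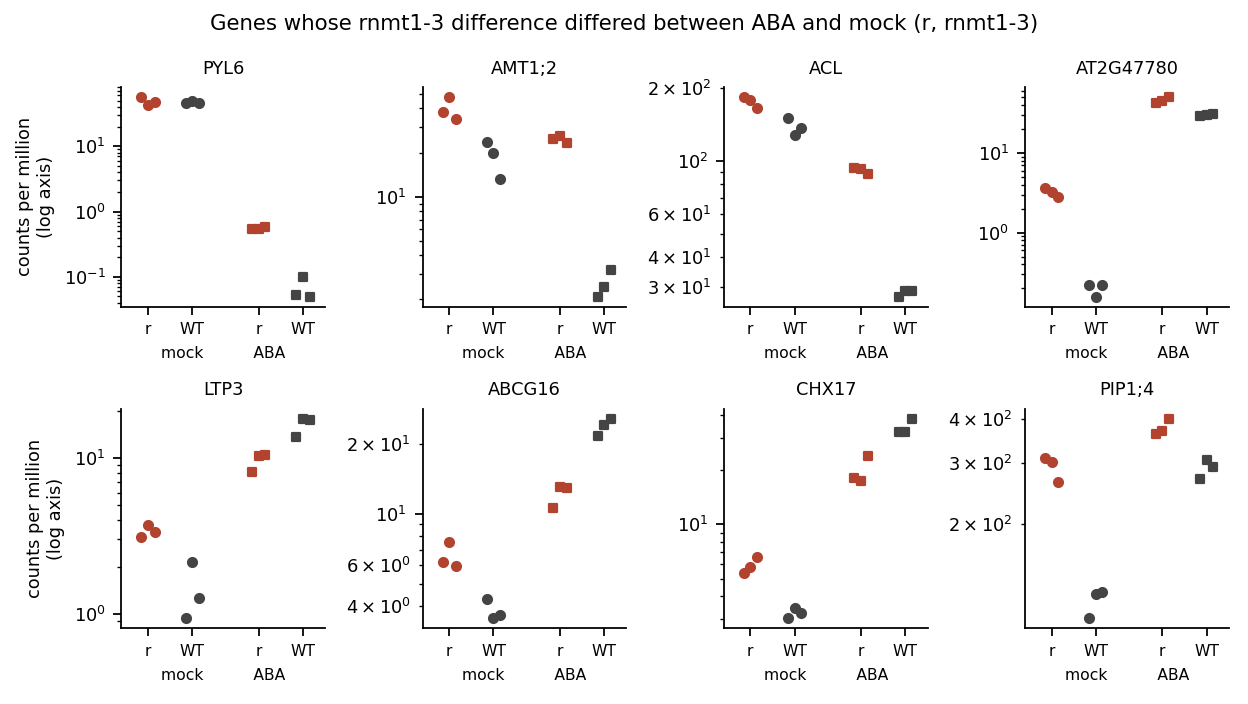
CPM values (log axis) of 8 genes with a passing interaction, 1 point per library, under mock (circles, left pair) and after ABA (squares, right pair), with rnmt1-3 (r, red) left of WT (grey) in each pair. For LTP3, ABCG16 and CHX17 the rnmt1-3 points lie above WT under mock and below WT after ABA, and for PYL6 the groups are level under mock and apart after ABA.

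After ABA rnmt1-3 was also set directly against dxo1, which lacks the activator of RNMT1, with no WT library involved. Of 20078 tested genes 2737 (13.6%) were higher in rnmt1-3 than in dxo1 and 2679 (13.3%) lower. Against dxo1/cDXO1 2514 (12.5%) were higher and 2665 (13.3%) lower of 20037. ABA-induced genes were more often higher than lower in rnmt1-3, with 320 of 1047 (30.6%) higher and 89 (8.50%) lower than in dxo1, and 262 (25.02%) higher and 91 (8.69%) lower than in dxo1/cDXO1. Of 8 tested PP2C genes 7 were higher than in dxo1 and 0 lower, and of 31 dehydration genes 19 were higher and 0 lower. ABI1 had 464, 483 and 472 CPM in rnmt1-3 and 348, 364 and 367 CPM in dxo1 (log2 fold change 0.39, adjusted p = 7.4e-06), and RD20 had 15.9, 15.5 and 27 CPM in rnmt1-3 and 6.51, 9.55 and 9.34 CPM in dxo1 (log2 fold change 1.19, adjusted p = 0.000117). Neither overlapped. MAPKKK18 was higher by 0.59 (adjusted p = 0.00420), while RAB18 had 19.5, 15 and 19.8 CPM in rnmt1-3 and 16.6, 20.1 and 19.6 CPM in dxo1, with overlapping ranges. Receptor genes PYR1 and PYL4 were lower in rnmt1-3 than in dxo1, with log2 fold changes of -0.40 and -0.94.

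Single genes differed far more between rnmt1-3 and dxo1. QQS, a starch regulator found only in Arabidopsis thaliana, had 32.3, 33.3 and 32.7 CPM in rnmt1-3 and 0.582, 1.49 and 0.975 CPM in dxo1 (log2 fold change 5.00, adjusted p = 4.6e-13), beside 4.6, 3.38 and 2.87 CPM in WT. It was higher in rnmt1-3 than in either group. AT3G06955, annotated as a noncoding RNA, had 16.8, 18.9 and 18.6 CPM in rnmt1-3 and 0.741, 0.213 and 0.308 CPM in dxo1 (log2 fold change 5.40), beside 6.1, 5.75 and 6.08 CPM in WT. SUC7, a sucrose transporter gene with near-identical copies, had 2.4, 1.53 and 1.77 CPM in rnmt1-3 and 0, 0.160 and 0.154 CPM in dxo1 (log2 fold change 4.098, adjusted p = 2.35e-05). Lower genes were AT2G11405, with 0 counts in every rnmt1-3 library and 8.04, 4.91 and 7.59 CPM in dxo1 (at least 46.8-fold lower), and the salicylic acid marker PR1, with 2 counts over the 3 rnmt1-3 libraries and 126 over the 3 dxo1 libraries (67.8-fold lower, 95% counting interval 18.4 to 566). PR1 had 2.09, 0.151 and 1.93 CPM in WT after ABA, with WT replicate 2 low. LURP1, a defence gene, had 0.453, 0 and 0.209 CPM in rnmt1-3 and 8.04, 1.01 and 3.39 CPM in dxo1 (log2 fold change -4.16, adjusted p = 0.000211). Of 15 tested salicylic acid genes 10 were lower (66.7%, against 13.3% of all tested genes) and 0 higher in rnmt1-3 than in dxo1. PR1 passed the filter on low counts only through its level in dxo1, so it could be called only as lower. Of 10 plant defensins 7 were higher (70%, against 13.6% of all tested genes) and 0 lower.

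Summed exon length had a median of 1552 bases in genes higher in rnmt1-3 than in WT after ABA, 2039.5 bases in lower genes and 1777 bases in all tested genes. Single-exon genes made up 17.9% of the higher genes, 8.32% of the lower genes and 13.9% of all. Among genes with more than 2-fold change the shares were 30.3% of the higher and 20.5% of the lower genes. These are descriptions with no test, and length was not corrected for in the counts.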

How the data were processed

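RNA-seq counts of 30 libraries in 10 groups of 3 were deposited. Per the labels, whole seedlings were used and polyadenylated RNA was sequenced. Per the submitters' processing notes, the tools were FastQC 0.11.8, HISAT2 2.2.1 and featureCounts in Subread 2.0.8, with the TAIR10 build. The authors deposited raw counts per gene, not normalized, for 32833 genes, and a gene length as another value that was not used in tests. Whether strand was used in counting, and how reads matching several genes were handled, is not given in the sources used here.

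Samples were grouped by their labels. Each comparison was fitted on its own groups with edgeR 4.0.16 in R 4.3.3 (default filter on low counts, TMM scaling, quasi-likelihood test, no covariate), with p adjusted by the Benjamini-Hochberg method over the genes tested and a threshold of 0.05. The interaction used the 4 groups of rnmt1-3 and WT. Printed CPM values are counts divided by library sizes scaled by TMM over all 30 libraries. Ratios from 1 to 3 counts have 95% exact intervals, and intervals and floors of 3 counts cover counting error only. Alternatives were DESeq2 1.42.0, RLE scaling, no filter beyond 1 count, a replicate block, a fit of all 30 libraries and leaving out each library. The fits were tested on simulated data.

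Named genes were RNMT1 and DXO1, the 10 rising and 10 falling genes of largest change with a mean of at least 1 CPM and no overlap, the 3 most abundant in each direction over 2-fold, the 4 of smallest interaction p also called after ABA, the 3 of largest change in each direction against dxo1, and list members. The members and lists were chosen with earlier results of these data known. Sequences came from RefSeq (TAIR10.1).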

Additional observations from a re-analysis of the deposited data

Results flagged for a closer look

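For 26 genes the rnmt1-3 difference after ABA differed from that under mock by the interaction of genotype and ABA (edgeR's quasi-likelihood test, Benjamini-Hochberg adjusted p under 0.05), and the 8 named above are given here. The interaction was positive, with a larger difference after ABA, for PYL6 (2.85 on the log2 scale), AMT1;2 (2.18) and ACL (1.33). It was negative for AT2G47780 (-3.38), LTP3 (-1.999), ABCG16 (-1.76), CHX17 (-1.68) and PIP1;4 (-0.89). LTP3, ABCG16 and CHX17 were higher in every rnmt1-3 library than in any WT library under mock and lower in every one after ABA. The interaction of LTP3 did not pass in 9 of the 12 fits that left out a library, and those of PYL6 and PIP1;4 did not pass in 6 each.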

How the results depend on the processing

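No result reversed. The 3945 higher and 3331 lower genes of rnmt1-3 against WT after ABA became 3604 and 2942 with DESeq2, 3747 and 3140 with all 30 libraries in the fit, and 3057 to 3996 and 2390 to 3363 when a library was left out. Of 117 named genes that passed, 111 passed under every alternative, but many were picked for large or clearly separated differences in these data. Over all 7276 genes that passed, 73.1% to 88.9% kept their call when a library was left out, and 87.9% with DESeq2. Counts over all genes that moved by more than 1.5 times were those under mock (3943 higher and 4025 lower with all 30 libraries, 893 to 3891 and 552 to 3576 when a library was left out), those of the interaction (49 positive and 71 negative with DESeq2, 15 positive with no filter beyond 1 count, 57 and 55 with all 30 libraries, 2 to 95 and 8 to 108 when a library was left out), and, with all 30 libraries, those against dxo1 (1616 higher, 1714 lower) and dxo1/cDXO1 (1510 higher, 1710 lower). Counts of list members moved too, with all 30 libraries to 1 fallen hypoxia gene, against 7, and 9 risen glutathione transferase genes, against 15, and with the replicate block to 5 fallen genes of ABA metabolism, against 2, and 4 risen jasmonate genes, against 1. The cause was not tested. Same-numbered rnmt1-3 and WT libraries after ABA correlated at 0.0547 to 0.0744 in their deviations from the group means, each best with its own number, a hint from the data and not from the design. The replicate block gave 4336 higher and 3720 lower genes after ABA and changed no call of a named gene. Genes of a few counts per library have little precision at this depth.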
